A study of Mus musculus with 14 samples.

Results

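AP-1 is a family of dimeric transcription factors, and the genes described here are its Jun subunits (Jun, Junb, Jund), its Fos subunits (Fos, Fosb, Fosl1, Fosl2), the related factor Atf3, and Rnf187, a RING-domain coactivator of Jun. They were chosen by name, and all 9 were found among the 27781 named genes of the deposited table. Rnf187 and Jund led to the choice, because their difference between aged and young libraries was already known. The differences between aged and young libraries are therefore given for all 9 genes as a description, without a test. Neuronal nuclei had been isolated from the medial entorhinal cortex, a parahippocampal area with cells tuned to position, in 7 aged and 7 young mouse samples, and SmartSeq libraries were sequenced to set expression beside recordings. The labels give age only as aged or young, in a field named genotype. Age in months, strain, sex, and whether each library is a separate animal are not stated in the sources used here, so the spread between libraries may in part be technical. Values are the authors' normalized values per gene, in which a library's depth is unknown.

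AP-1 binds DNA as a dimer held together by leucine zippers. Jun proteins pair with each other or with Fos proteins, whereas Fos proteins need a Jun partner. In neurons Fos, Fosb, Jun and Junb are known as immediate-early genes that are transcribed briefly after activity, Jund is known for a more constant expression, and Atf3 for induction after injury and stress. Rnf187, also called RACO-1, is known to bind Jun and to raise AP-1 transcription, and its protein is stabilized by growth factor signalling through MEK and ERK.

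Libraries also fell into sets that cut across age, and the differences below are also given with regard to the sets. Xist, the RNA of the inactive X chromosome, lay at 7378 to 25459 in 5 aged and 2 young libraries (aged libraries 3 to 7, young libraries 2 and 3) and at 0 to 5.13 in 2 aged and 5 young libraries (aged libraries 12 and 13, young libraries 11, 16, 17, 18 and 19). These sets are called Xist-positive and Xist-negative. They also differed in the number of genes above 0 (21152 to 22812 in Xist-positive and 25263 to 25615 in Xist-negative libraries) and in Malat1, an abundant nuclear RNA (11412 to 21489 and 55442 to 167698). Eif2s3y, Kdm5d, Uty and Ddx3y, which lie on the Y chromosome, summed to 1.14 to 11.1 in Xist-positive and 4367 to 9425 in Xist-negative libraries, so the sets differed in sex-linked RNA as female and male samples do. The first principal component of the 24554 genes tested, their main axis of variation, held 69.6% of the variance and separated the sets fully. The labels give neither sex nor batch, and a batch that follows the sets cannot be told apart from sex. The neuronal markers Rbfox3, Snap25, Syt1, Map2, Slc17a7 and Gad1 were above 0 in every library and summed to 105570 to 196901 in aged and 120772 to 165084 in young libraries. The marker lists of other cell types were also above 0 in every library. The 6 astrocyte markers summed to 2780 to 9417 in aged and 3591 to 6217 in young libraries, and the 6 oligodendrocyte markers to 4669 to 16271 in aged and 3084 to 8980.3 in young libraries. The 4 markers of oligodendrocyte precursors summed to 244 to 1624 in aged and 162 to 1547 in young libraries, the 6 of microglia to 756 to 4408 and 669 to 3348, and the 4 of endothelial cells to 842 to 3154 and 1209 to 5030.3. With a term for the library set, the glial markers were mostly higher in aged libraries, and none passed limma's adjusted p of 0.05. The median log2 difference was 0.59 for astrocytes, 1.003 for oligodendrocytes and 0.65 for microglia, each with 6 of 6 markers positive, and 1.13 for oligodendrocyte precursors (3 of 4 positive). It was 0.13 for neurons (4 of 6 positive) and -0.27 for endothelial cells (1 of 4 positive). The medians with age alone were 0.49 for astrocytes (5 of 6 positive), 0.35 for oligodendrocytes (4 of 6) and 0.17 for microglia (4 of 6). They were 1.02 for oligodendrocyte precursors (3 of 4), 0.25 for neurons (5 of 6) and -0.70 for endothelial cells (0 of 4). No marker passed with age alone either. The part of these cells in the age differences of Rnf187, Jund and the other AP-1 genes was not tested. In pooled nuclei, fewer cells of a type and less RNA per cell cannot be told apart.

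The DNA just before the start of Rnf187 and Jund, which stood out together, and of Jun and Fos, which did not, is shown for comparison. Promoter windows from RefSeq (build GRCm38.p6) matched 8 of the 9 genes by symbol, and Fosl1 was not matched. The 250 bases before the RefSeq start were searched on both strands for the AP-1 element TGACTCA (reverse complement TGAGTCA) and for TGACG (reverse complement CGTCA), the core of the element bound by CREB. Both begin with TGAC, but a match to one is not a match to the other. Capitals mark TGACG or CGTCA, and each sequence reads 5′ to 3′ on the strand of its gene.
Rnf187 (chr11:58938907-58939156, minus strand): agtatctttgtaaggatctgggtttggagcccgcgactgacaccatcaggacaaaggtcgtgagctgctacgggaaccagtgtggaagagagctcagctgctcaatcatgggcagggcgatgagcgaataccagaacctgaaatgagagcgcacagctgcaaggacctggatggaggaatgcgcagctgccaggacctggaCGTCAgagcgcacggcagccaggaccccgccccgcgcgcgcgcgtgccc
Jund (chr8:70697489-70697738, plus strand): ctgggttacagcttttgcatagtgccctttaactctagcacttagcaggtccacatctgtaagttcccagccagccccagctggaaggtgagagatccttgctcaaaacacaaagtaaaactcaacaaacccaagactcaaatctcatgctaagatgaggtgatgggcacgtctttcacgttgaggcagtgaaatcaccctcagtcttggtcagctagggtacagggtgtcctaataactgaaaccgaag
Jun (chr4:95052223-95052472, minus strand): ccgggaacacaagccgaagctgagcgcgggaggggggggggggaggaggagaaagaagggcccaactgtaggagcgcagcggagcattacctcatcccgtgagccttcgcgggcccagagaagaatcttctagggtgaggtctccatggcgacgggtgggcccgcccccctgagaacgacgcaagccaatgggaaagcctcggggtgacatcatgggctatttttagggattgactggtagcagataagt
Fos (chr12:85473640-85473889, plus strand): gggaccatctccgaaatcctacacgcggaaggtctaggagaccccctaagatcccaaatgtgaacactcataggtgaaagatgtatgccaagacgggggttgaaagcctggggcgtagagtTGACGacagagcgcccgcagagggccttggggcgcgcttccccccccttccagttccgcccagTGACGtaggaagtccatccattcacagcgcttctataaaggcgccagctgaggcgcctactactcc
None of the 8 windows held the AP-1 element, which is present in 4.46% of 32851 windows of the same length. The CREB core was present in 5 of the 8, against 17.8% of all windows. It contains a CpG, and these 5 windows were 58.4 to 68.8% G and C, against a median of 52.4% over all windows; the part of base composition in the count was not tested. Fos held it at 129 and 66 bases before its start, Rnf187 at 49, Junb at 106, Fosb at 60 and Atf3 at 7 (first base of each match). The windows of Jund, Jun and Fosl2 held no exact match to either motif, and variant forms were not searched. The full CREB element TGACGTCA, also searched, was in 0 of the 8 windows and in 1.55% of all windows. The Jund window lies before a RefSeq start that is 1210 bases upstream of the start in GENCODE M21 (mm10), and so does not adjoin that start. The windows of Atf3 and Fosl2 lie before RefSeq starts 34706 and 671 bases downstream of the GENCODE start of the gene, and the Atf3 window is 1 of the 5 with the core. The matches describe letters and not bound sites.

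Rnf187 (ENSMUSG00000020496.9, chromosome 11, 58932288 to 58938916, minus strand, mm10) had the highest mean level per kilobase of the 9 genes in both age groups and was higher in aged libraries. In aged libraries its normalized value was lowest at 2129 (library 12), had a median of 4838 and was highest at 6692 (library 3). In young libraries the lowest value was 409 (library 16), the median 585 and the highest 3198 (library 3). The age groups overlapped only through aged library 12 and young library 3: 6 of 7 aged libraries lay above the highest young one. Within the sets they did not overlap. In Xist-positive libraries the 5 aged values ran from 4486 to 6692, against 1518 and 3198 in the 2 young libraries. In Xist-negative libraries the aged values were 2129 and 4676, against 409 to 639 in the 5 young libraries. Young libraries were thus split by set, with both Xist-positive ones above all 5 Xist-negative ones. The young mean per kilobase of Rnf187, 539 ± 523 (SD), was raised by these 2 libraries. It was close to that of Junb (524 ± 232).

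The difference in Rnf187, aged minus young as log2(value + 1), was 2.54 (SE 0.41) with age alone and 1.93 (SE 0.28) with a term for the library set. It was 1.26 (SE 0.31) among Xist-positive and 2.60 (SE 0.34) among Xist-negative libraries. The gap between these values, -1.34 (SE 0.46), was tested as an interaction, which the choice of genes did not use, and had an unadjusted p = 0.0111 and an adjusted p = 0.9997 in limma. No gene of 24554 passed an adjusted p of 0.05 for this interaction (0%), and 889 genes (3.62%) had an unadjusted p under 0.05. With few libraries in each cell of the design (5 aged and 2 young, 2 aged and 5 young), an unequal age difference between the sets was not detectable for Rnf187 after adjustment. The value also depended on single libraries, at -0.77 without aged library 13 and -1.91 without aged library 12. Over the 9 genes, the unadjusted p of the interaction was under 0.05 for Rnf187 alone.

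Jund (ENSMUSG00000071076.6, chromosome 8, 70698949 to 70700616, plus strand) is a gene of 1 exon and encodes the Jun protein that is usually present before stimulation. It was the AP-1 subunit with the highest value in aged relative to young libraries. In aged libraries the normalized value was lowest at 58.6 (library 12), had a median of 420.1 and was highest at 571 (library 5). In young libraries the lowest value was 11.98 (library 11), the median 31.7 and the highest 128 (library 3). As for Rnf187, aged library 12 and young library 3 were the values through which the groups overlapped, and 6 of 7 aged libraries lay above the highest young one. In Xist-positive libraries the aged values ran from 386 to 571, against 39.2 and 128 in the young libraries. In Xist-negative libraries they were 58.6 and 241, against 11.98 to 38.9 in the young libraries.

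The Jund difference was 3.31 (SE 0.59) with age alone, 2.54 (SE 0.44) with a term for the library set, 2.75 (SE 0.46) among Xist-positive and 2.33 (SE 0.72) among Xist-negative libraries. Its size rests on low young values, and with age alone and a pseudocount of 10 it was 2.97. The interaction was 0.42 (SE 0.90, unadjusted p = 0.646, limma adjusted p = 0.9997). It was -0.59 without aged library 12 and 1.43 without aged library 13. Leaving out each library in turn, with a term for the library set, gave 2.18 to 2.97 for Jund and 1.55 to 2.31 for Rnf187. Every aged library above every young one within both sets was seen in 152 of 24554 genes (0.619%), Rnf187 and Jund among them. In Xist-positive libraries alone this was seen in 4.65% and in Xist-negative libraries alone in 3.84% of genes, and of the 9 genes only in Rnf187 and Jund. Over all libraries together none of the 9 genes separated the age groups, where 0.138% of genes did with aged above and 0.0733% with aged below young. Since the difference between age groups chose these genes, nothing is read from these shares. The antisense gene Gm11175, annotated across Jund, was listed at 0 in each aged library and at 0 to 2.91 in young libraries.

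**Figure D1:**
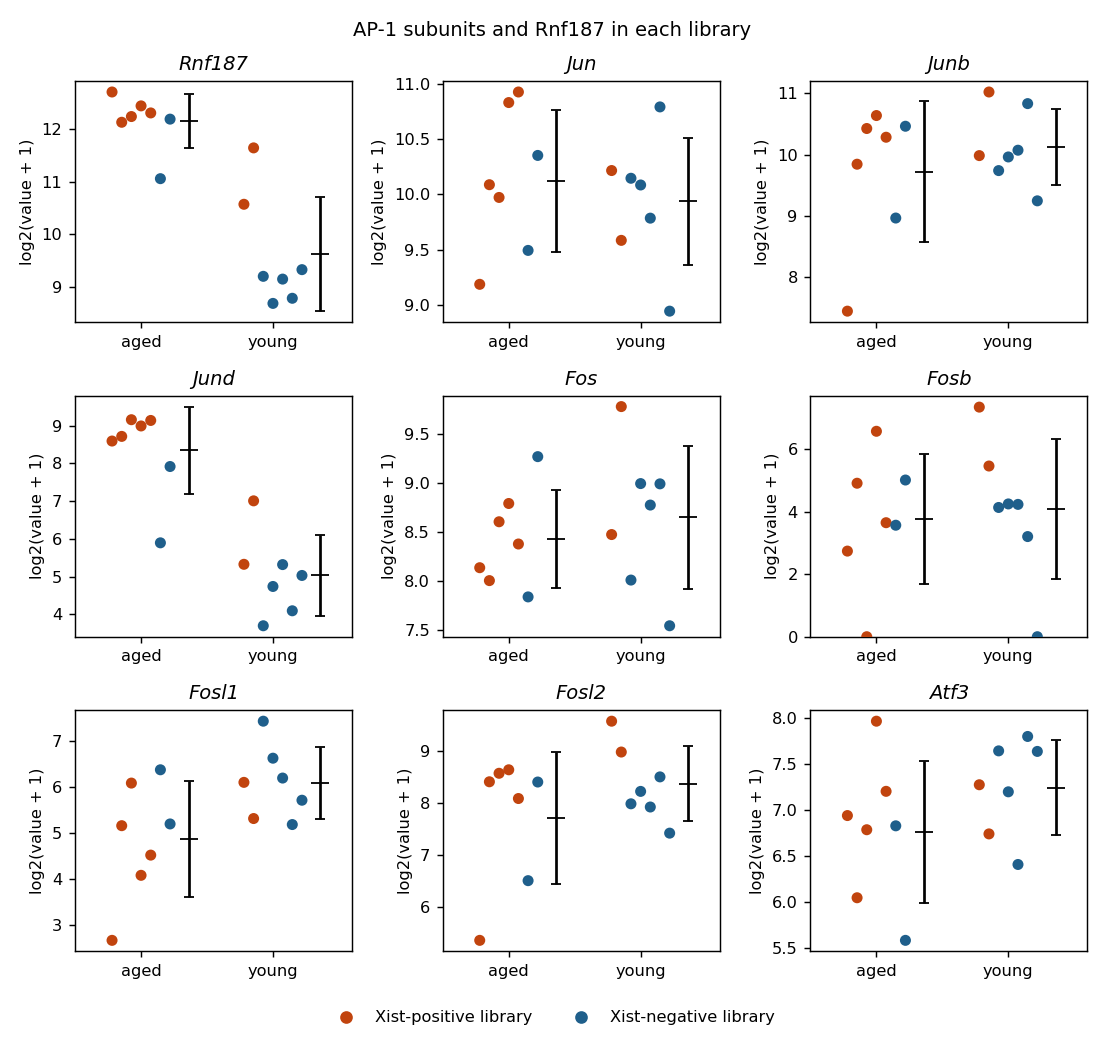
Values of the 9 genes in each library on the log2(value + 1) scale, with aged left and young right of each panel, points coloured by library set, and a bar for mean and SD on that scale (n = 7 per group). Rnf187 and Jund overlap between age groups only through aged library 12 and young library 3, while the other 7 genes overlap broadly.

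Jun, the founding member of the family, did not separate the groups. It had a lowest value of 582, a median of 1087 and a highest of 1945 in aged libraries, and 492, 1085 and 1771 in young libraries. Its difference was 0.19 (SE 0.30) with age alone and 0.14 (SE 0.33) with the set term. It was 0.30 (SE 0.51) among Xist-positive and -0.03 (SE 0.43) among Xist-negative libraries. The sign also turned with libraries scaled to equal upper quartiles (-0.014) and with the set term without young library 3 (-0.02). Junb, an immediate-early subunit, had a lowest value of 174, a median of 1245 and a highest of 1590.3 in aged libraries, and 607, 1012 and 2075 in young libraries. The lowest aged value was that of library 3. The Junb difference was -0.40 (SE 0.44), which became -0.02 without aged library 3, and -0.51 (SE 0.48) with the set term. It was -0.77 (SE 0.91) among Xist-positive and -0.26 (SE 0.45) among Xist-negative libraries. For both genes the difference was about as large as its standard error or smaller. Jun (chromosome 4, 95049034 to 95052222) overlaps its antisense gene Junos, at 659 ± 280 in aged and 846 ± 341 in young libraries (7 each, ± SD). Junb (chromosome 8, 84974484 to 84978718) overlaps the end of Prdx2, a peroxiredoxin gene, at 2483 ± 699 in aged and 1669 ± 383 in young libraries (7 each, ± SD). The counting is not stated to use strand, so reads in these overlaps cannot be told apart.

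The Fos subunits and Atf3 all had negative differences with age alone and with the set term, none of them larger than 2 standard errors. The signs of Fos and Fosb rested on single libraries: Fosb was at 0.32 without aged library 5, at 0.016 with the set term without young library 2 and at 0.14 with library weights, and Fos at -0.03 without young library 3 and at 0.02 when the set term was added there. Fos, the activity marker, had a lowest value of 227, a median of 332 and a highest of 617 in aged libraries, and 185, 437 and 880.4 in young libraries, a difference of -0.22 (SE 0.33) with age alone. Among Xist-negative libraries it was 0.09 (SE 0.51), and among Xist-positive ones -0.75 (SE 0.40). Fosl2, which encodes Fra-2, had values of 40.3, 338 and 397 in aged libraries (lowest, median and highest) and 171, 298 and 759 in young libraries. Its difference was -0.66 (SE 0.51) with age alone and -1.01 (SE 0.52) with the set term, and -0.27 with age alone without aged library 3. It was -1.46 (SE 0.95) among Xist-positive and -0.55 (SE 0.51) among Xist-negative libraries. In Xist-positive libraries all 5 aged Fosl2 values, up to 397, lay below both young values, 503 and 759. This was so of 9.82% of all genes tested. In Xist-negative libraries the groups overlapped for Fosl2, while 6.28% of genes had both aged values below all young ones.

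Fosl1, which encodes Fra-1, was low throughout, with 5.30, 34.8 and 82.4 in aged libraries (lowest, median and highest) and 35.4, 67.9 and 173 in young libraries. Its difference was -1.22 (SE 0.63) with age alone and -0.83 (SE 0.59) with the set term, -1.21 (SE 0.98) among Xist-positive and -0.45 (SE 0.67) among Xist-negative libraries. The gene overlaps Ccdc85b on the other strand (779 ± 210 in aged and 534 ± 182 in young libraries, 7 each, ± SD). Fosb was the lowest of the genes, from 0 to 93.9 in aged and from 0 to 161 in young libraries, with medians of 11.5 and 17.8. Its differences had large errors, -0.31 (SE 1.10) with age alone, -2.83 (SE 1.76) among Xist-positive and 1.13 (SE 1.15) among Xist-negative libraries. Atf3 ran from 46.9 to 248 in aged libraries, with a median of 112, and from 83.8 to 221 in young libraries, with a median of 153.5 (difference -0.48, SE 0.40, and -0.28 without aged library 13). Among Xist-negative libraries the Atf3 difference was -1.13 (SE 0.53), just over 2 standard errors, and among Xist-positive ones -0.02 (SE 0.54). Over the 9 genes the median difference was -0.31 with age alone and -0.51 with the set term, beside medians of -0.25 and -0.16 over all 24554 genes. Of the 9 genes 3 had positive differences in both fits, and of all genes 37.2% and 37.5%.

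**Figure D2:**
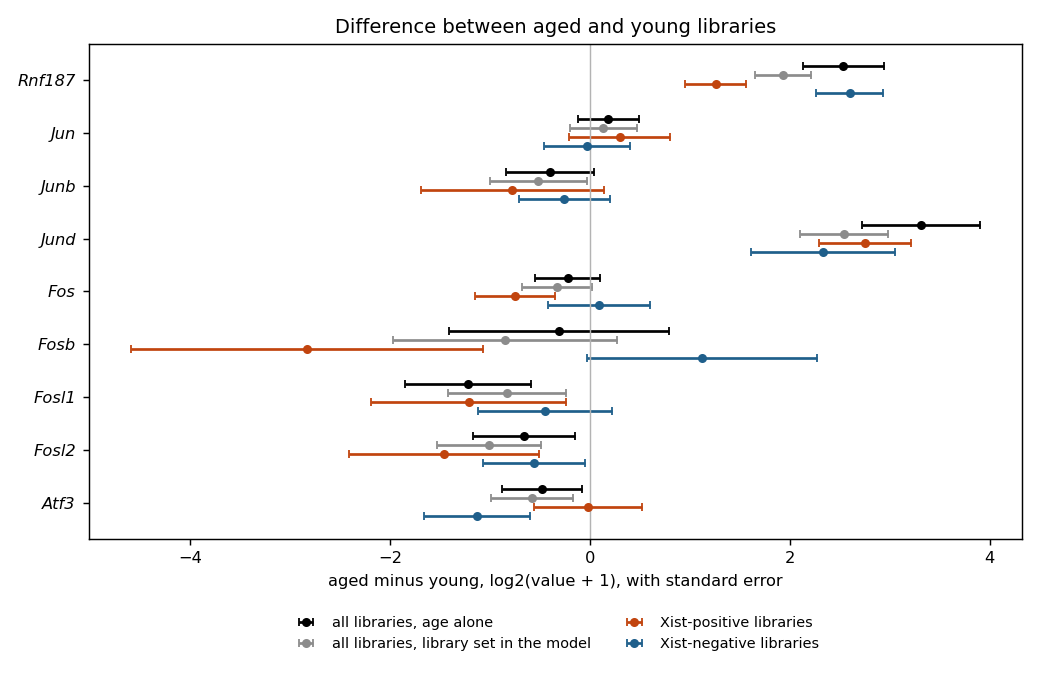
Difference between aged and young libraries for each gene, in log2(value + 1), as points with standard errors for age alone, for the library set in the model, and for each set alone. Rnf187 and Jund lie above 1.2 in each fit, and the other 7 genes lie near or below 0, apart from Fosb at 1.13 in Xist-negative libraries.

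The authors' deposited table gives aged over young log2 fold changes of 1.93 (SE 0.32) for Rnf187 and 2.58 (SE 0.40) for Jund, with the same adjusted p = 3.21e-06. At an adjusted p under 0.05 that comparison called 178 of 21253 genes (0.838%) as higher in aged mice and 334 (1.57%) as lower. For the other 7 genes the authors' deposited table lists log2 fold changes between -0.73 (Fosl2, SE 0.47, adjusted p = 0.395) and 0.16 (Jun, SE 0.36, adjusted p = 0.867). The authors' deposited table thus called 2 of the 9 genes. The limma differences of Rnf187 and Jund were 1.93 and 2.54 with the set term, and 2.54 and 3.31 with age alone. Whether the authors' model held terms besides age is not known here. In the limma fits 1 gene of 24554 (0.00407%) passed as lower with age alone and none as higher (0%), and 1 each (0.00407%) passed as higher and lower with the set term. The counts come from the same libraries and are not independent of the choice of the genes.

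Levels of the genes were set beside each other as normalized value per kilobase of annotated exon. In aged libraries Rnf187 was at 2453 ± 710.2, Junb at 448 ± 228, Jun at 379 ± 163, Jund at 235 ± 112 and Fos at 154 ± 57.4 per kilobase (SD, n = 7). Atf3 (56.3 ± 30.4), Fosl2 (27.4 ± 14.8), Fosl1 (18.5 ± 13.7) and Fosb (4.17 ± 5.14) followed. In young libraries the order was Rnf187 (539 ± 523), Junb (524 ± 232), Jun (328 ± 126), Fos (190.2 ± 96.5), Atf3 (73.3 ± 23.7), Fosl2 (38.2 ± 20.9), Fosl1 (37.8 ± 23.4), Jund (24.96 ± 23.6) and Fosb (6.05 ± 8.96). Jund stood at place 4 in aged and place 8 in young libraries. In aged libraries the SD ranges of neighbours in the order overlapped except between Rnf187 and Junb and between Fos and Atf3, and in young libraries all neighbours overlapped.

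The makeup of the Jun family differed accordingly. Jund was 7.35 to 47.3% of the summed Jun, Junb and Jund level per kilobase in aged libraries, with a median of 22.7%, and 0.712 to 6.29% in young libraries, with a median of 2.81%. The age groups did not overlap in this share, although aged library 12 came within about a percentage point of young library 3. Since Jund was chosen with its age difference known, nothing is read from this split. The highest share, in aged library 3, went with the lowest Junb and Jun values of the aged libraries and not with the highest Jund. The ratio of Rnf187 to Jund within a library had a median of 10.9 in aged and 25.01 in young libraries, with overlapping ranges (8.47 to 36.3 and 14.5 to 48.8).

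**Figure D3:**
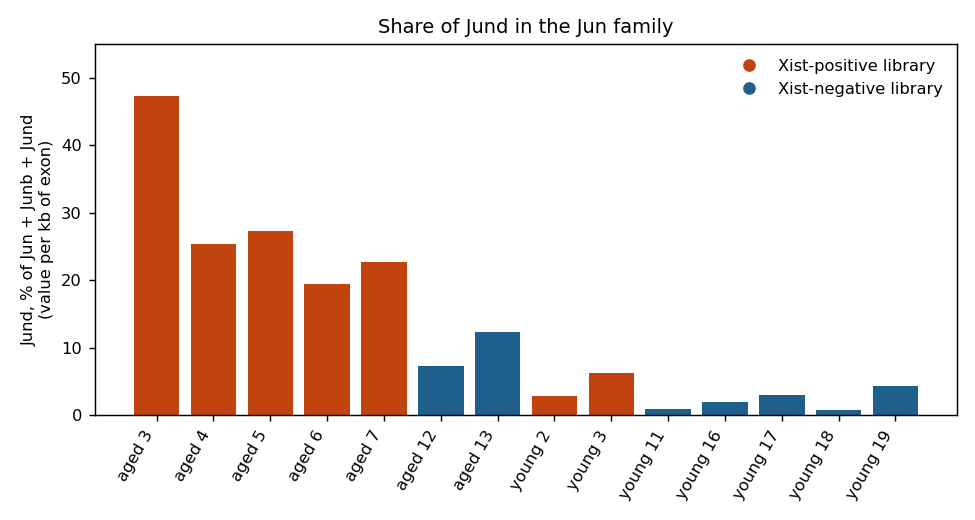
Share of Jund in the summed level of Jun, Junb and Jund, in percent of values per kilobase of exon, as 1 bar per library, aged left and young right, coloured by library set. Aged libraries lie between 7.35 and 47.3% and young libraries between 0.712 and 6.29%.

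The library sets were compared over all libraries with age in the model, a contrast that the choice of genes did not use, although the unequal sets tie its estimate to that of age. Rnf187 and Jund were higher in Xist-positive libraries. Rnf187 was at 4482 ± 1682 in Xist-positive and 1349 ± 1586 in Xist-negative libraries (7 each, ± SD). With age in the model the log2 difference was 1.41 (SE 0.28, adjusted p = 0.000494 in limma), and these means are not adjusted for age. Jund was at 374 ± 211 in Xist-positive and 60.6 ± 81.1 in Xist-negative libraries (7 each, ± SD; log2 difference with age in the model 1.80, SE 0.44, limma adjusted p = 0.00254). The other 7 genes did not pass, with log2 differences between -0.91 (Fosl1, SE 0.59, limma adjusted p = 0.213) and 1.26 (Fosb, SE 1.12, limma adjusted p = 0.365). Thus 2 of 9 genes were called as higher, where 15.5% of all genes were called as higher and 36.5% as lower (57.3% had an unadjusted p under 0.05). Neither Rnf187 nor Jund had every Xist-positive library above every Xist-negative one, as 4.88% of genes did. Fosl2 passed as higher once aged library 3 was left out (1.12, limma adjusted p = 0.00653), against 0.81 with all libraries (adjusted p = 0.207). The number of genes above 0 and Malat1 also differed between the sets, and their part in these differences was not tested.

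Whether the genes varied together was examined within each set of 7 libraries on the log2(value + 1) scale, over 72 relations (36 pairs in each set) with exact permutation tests. No relation passed after adjustment (smallest adjusted p = 0.129 for Pearson's r and 0.177 for Spearman's rho). The permutations exchanged aged and young libraries, and Rnf187 and Jund were chosen with their age difference known. Their r and rho are therefore given as a description, without p. Rnf187 and Jund had r = 0.93 and rho = 0.50 in Xist-positive libraries. Without the 2 libraries farthest from the median, young 2 and young 3, r was -0.45. In Xist-negative libraries they had r = 0.90 and rho = 0.68, and r was 0.18 without aged 12 and aged 13. In each set the relation rested on the libraries of the less numerous age, so that Rnf187 and Jund were not shown to vary together within an age group. The pair Junb and Fosl2 had r = 0.91 (exact permutation p = 0.00179, adjusted p = 0.129) and rho = 0.89 (p = 0.0123, adjusted p = 0.177) in Xist-negative libraries. There r was 0.91 again without aged 12 and young 18. In Xist-positive libraries Junb and Fosl2 had r = 0.89 (exact permutation p = 0.0661, adjusted p = 0.366) and rho = 0.57 (p = 0.200, adjusted p = 0.720), and r was -0.26 without aged 3 and young 3.

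**Figure D4:**
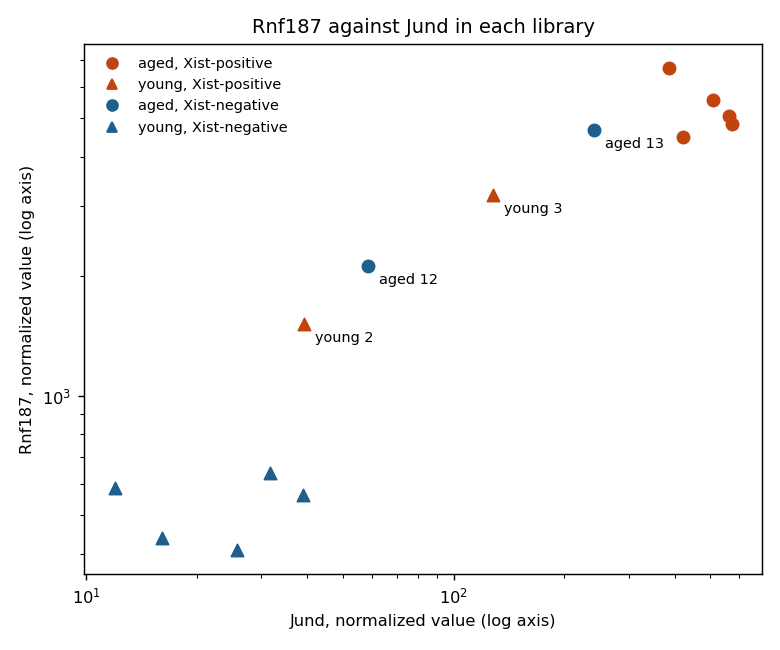
Normalized value of Rnf187 against that of Jund in each library, on log axes, with circles for aged and triangles for young libraries and colours for library sets. Aged Xist-positive libraries lie at the upper right (Rnf187 4486 to 6692), young Xist-negative ones at the lower left (409 to 639), and aged 12, aged 13, young 2 and young 3 between them along the Jund axis.

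The genes whose pattern was most like that of Rnf187 were ranked by Pearson's r over the 14 libraries after subtracting each set's mean, among 14068 other genes with a mean of 100 or more. They were Rragc, a GTPase of the mTORC1 nutrient pathway (r = 0.95), Bag1, a co-chaperone (0.94), Habp4 (0.94), Klhdc2, a ubiquitin ligase receptor (0.93), and Hnrnpab, an RNA-binding protein (0.93). Jund was at place 38 (0.87). Rragc, for example, was at 1227 ± 244 in aged and 570.1 ± 180 in young libraries (7 each, ± SD). The genes most like Jund were Bod1 (0.97), Dirc2 (0.97), the ubiquitin ligase gene Siah1a (0.92), Mettl10 (0.92) and Fjx1 (0.92), with Rnf187 at place 23. Dirc2 was at 3046 ± 1104 in aged and 756 ± 486 in young libraries (7 each, ± SD). All 10 of these nearest genes had higher means in aged libraries, and age differences remain in the values after the set means are subtracted.

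Genes around AP-1 were followed in 8 lists that hold its partners, its kinases and phosphatases, regulators of the Jun and Rnf187 proteins, and reported targets. Of 123 genes tested, 0 passed limma's adjusted p of 0.05 with age alone (smallest adjusted p = 0.182) or with a term for the library set (smallest adjusted p = 0.198). With age alone 15 of them (12.2%) had an unadjusted p under 0.05, against 24.1% of all genes, and with the set term 16 (13.01%), against 13.1%. Without aged library 12, where 2381 of all genes passed, 2 list genes passed with age alone, among them Jdp2 (0.95, limma adjusted p = 0.0449). With library weights in limma, where 13048 of all genes passed, 43 list genes passed.

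Among partners, the 14 related bZIP factors had a median difference of 0.23 with age alone (9 positive) and 0.05 with the set term (7 positive). Jdp2, a Jun-binding repressor of AP-1, was at 1375 ± 470.4 in aged and 777 ± 262 in young libraries (7 each, ± SD), with log2 differences of 0.80 (adjusted p = 0.182) and 0.40 (adjusted p = 0.361) in the 2 limma fits. Atf4, of the integrated stress response, had 0.61 and 0.16, and Batf -1.02 and -0.35. The 14 tested CREB and SRF factors and coactivators, which act on promoters such as that of Fos, had medians of -0.02 (6 positive) and -0.31 (4 positive). Mkl1, an SRF coactivator, had differences of -0.56 and -0.73, Srf of 0.48 and -0.05, and Crtc3 of 0.36 and -0.10. Over all genes the medians were -0.25 and -0.16.

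Upstream, the 11 tested ERK pathway kinases had medians of 0.19 (8 positive) and -0.03 (5 positive). Rps6ka5, a nuclear kinase downstream of ERK and p38, had differences of -0.54 and -0.57, and Braf -0.30 and -0.30. The 18 JNK and p38 pathway genes had medians of -0.00 (9 positive) and -0.18 (5 positive). Those with the smallest p were the neuronal kinase Map3k13 (-0.66 and -0.50), the scaffold Mapk8ip3 (-0.40 and -0.35) and the kinase Map3k12 (-0.32 and -0.29), which all act upstream of JNK. The 9 MAP kinase phosphatases had medians of -0.32 (4 positive) and -0.24 (3 positive), with Dusp8 at 0.84 and 0.24, Dusp6, which acts on ERK, at -0.88 and -0.84, and Dusp5 at 0.65 and 0.21.

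The 11 tested regulators of Jun and Rnf187 protein had medians of 0.13 (9 positive) and 0.14 (6 positive). Cops5, a COP9 signalosome subunit that binds Jun, had differences of 0.41 and 0.21, and Prmt1, an arginine methyltransferase reported to modify Rnf187, of 0.67 and 0.35. The 26 reported AP-1 targets had medians of -0.01 (13 positive) and 0.07 (14 positive). Vgf, a neuronal secreted peptide precursor, had differences of 0.61 and 0.57, Vegfa of 0.69 and 0.26, and Il6, at 8.63 ± 8.19 in aged and 25.9 ± 15.8 in young libraries (7 each, ± SD), of -1.77 and -1.04. The 20 other immediate-early genes had medians of -0.37 (4 positive) and -0.51 (2 positive). Among them Npas4 had -1.48 (SE 0.48, limma adjusted p = 0.182) and -1.59 (SE 0.52, adjusted p = 0.256), Arc -1.09 and -0.96, and Egr2 -1.31 and -0.91. None of the named list genes passed in either limma fit.

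**Figure D5:**
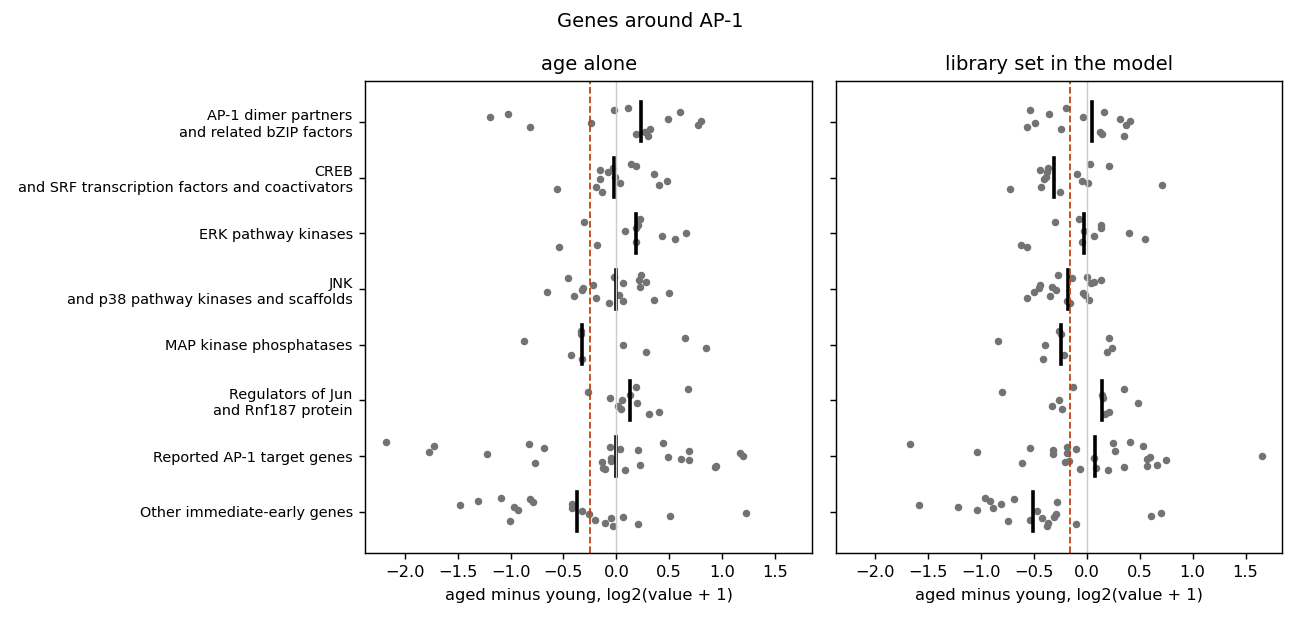
Difference between aged and young libraries for each gene of the 8 lists (points), in log2(value + 1), with age alone (left) and with a term for the library set (right). Black bars are list medians and the dashed line is the median of all genes (-0.25 and -0.16), and no list gene passed an adjusted p of 0.05 in either fit.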

How the data were processed

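RNA from neuronal nuclei was sequenced in 7 aged and 7 young libraries. The authors deposited a table of normalized signal per gene; per the submitters' processing notes, the tools were STAR, kallisto and DESeq2 and the build mm10, with no version given. The library values are not whole, and 21.8 to 31.6% of the low values were whole steps to within 0.05 (10% by chance), so counts were not recovered and depth is unknown. The deposited log2 fold changes, test score, p-values and adjusted p-values, per the file headers, were used as the authors' comparison only. The 1 unnamed row (0.0430 to 0.221% of a library) and the row Recording were left out, and 27 names turned into dates were kept as they stand. Value columns left unmapped numbered 0.

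Genes at 1 or more in at least 7 libraries (24554) were fitted as log2(value + 1) with limma 3.58.1 (R 4.3.3; lmFit, eBayes with trend), Benjamini-Hochberg adjusted over all genes at 0.05, and checked on simulated data. The simulated data had independent normal noise with a capped SD. For the fit with age alone they held no set difference, so the check does not cover that feature of the libraries. Library sets were split at an Xist value of 100. Alternatives were the set term, each set alone, other scalings, filters and pseudocounts, no variance trend, library weights and each library left out. Such differences understate changes of low genes. The genes, lists and alternatives were chosen with earlier results of these data known; the set term together with a left-out library was chosen after seeing the data. Named list genes are the 3 with the smallest p per list, of which some are not reported here, and likeness was ranked among named, non-predicted genes. Python 3.11.15, numpy 2.4.6, pandas 2.3.3 and matplotlib 3.10.9 were used. Coordinates, exon lengths and overlaps come from GENCODE M21 (mm10).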

Additional observations from a re-analysis of the deposited data

Results flagged for a closer look

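In 18 groups of 7 values (9 genes, aged and young), 4 held a library far from the others by Dixon's test on the normalized values, untransformed, at the critical value of 0.568; chance flags about 1 in 20 groups. Rnf187 was at 3198 in young library 3, and the next highest young library was at 1518 (gap of 0.602 of the range). Jund was at 128 in the same library, and the next highest was at 39.2 (0.766 of the range). Fosb was at 93.9 in aged library 6, and the next highest aged library was at 31.2 (0.667 of the range). Fosb was at 161 in young library 2, and the next highest young library was at 42.9 (0.733 of the range). These flags depended on the scale. On log2(value + 1), a check chosen after seeing the data, none of the 4 passed (0.363, 0.508, 0.237 and 0.257 of the range in the same order), and 2 of 18 groups held another library apart: aged library 12 was low in Rnf187 (0.651) and in Jund (0.620). Young libraries 2 and 3 are the 2 Xist-positive ones of their group.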

How the results depend on the processing

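No paired analysis was possible because the age groups share only the number 3 in their labels. The differences of Rnf187 and Jund were positive under every alternative run, 1.26 to 3.13 and 2.33 to 4.003 without leaving out a library. Some values moved beyond the spread between libraries. Among Xist-positive libraries Rnf187 was at 1.26 and Fosb at -2.83, and with the set in the model Rnf187 was at 1.55 without aged library 13 and Jund at 2.18 without young library 2. Scaling to equal upper quartiles moved the median of all genes by -0.19 and turned the sign of Jun; the signs of Fos, Fosb and Jun also turned as single libraries were left out, with age alone or with the set term. The number of genes past the threshold for age (1 with age alone) was 2 with the set in the model, 60 and 5 in the Xist-positive and Xist-negative libraries, 52 at equal totals, 5 at equal upper quartiles, 8 with a pseudocount of 10, 0 without the variance trend and 13048 with library weights, where 43 list genes passed; leaving out each library gave 0 to 2381 genes (2381 without aged library 12, 115 without young library 3, 18 without young library 2), and 0 to 2 list genes. The cause was not tested. The set difference of Fosl2 ran from 0.58 to 1.28 as libraries were left out, and Rnf187 and Jund passed in all 14 cases. Depth is unknown, so no counting error can be given for the low values of Fosb and Fosl1, or of Jund in young libraries (median 31.7).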
